A study of Mus musculus with 11 samples.

Results

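Serpina7, Gucy2c, Gc, Ache and Gm2115 were higher and Cd79a, Cyp4f39 and T2 lower than in the wild type in β-cells without Raptor, the defining subunit of the growth-controlling kinase complex mTORC1. These 8 genes, of 34728 gene symbols in the table, were selected on their measured values, for large rises or falls in both mutant groups against the wild type, so their differences from the wild type are given as a description and not as tests. Serpina7 was the extreme case, at 4.76 to 9.59 FPKM in the wild type and 92.2 to 252 FPKM in the mutants. FPKM counts sequenced fragments relative to transcript length and library size, so that levels can be set side by side between genes.

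The study sorted GFP-labelled β-cells from islets of male mice on a C57BL/6 x 129SV background, aged 8 weeks. All groups, wild type included, carried RIP-Cre, a Cre recombinase under the rat insulin promoter, and a GFP reporter at Rosa26. The 3 groups were wild type (WT, Raptor +/+, 3 libraries), diabetic βRapKOGFP (Raptor -/-, no insulin pellet, 4 libraries) and euglycemic βRapKOGFP (Raptor -/- with an insulin pellet for 4 weeks, 4 libraries). The table heads the euglycemic libraries KI, which no label spells out. These columns were read as the insulin-treated mutants from the initials and because the WT and KO columns took the other titles, and every euglycemic value rests on that reading. Diabetic and euglycemic mutants thus share the deletion and differ in the insulin given and in the glucose level, while both were set against the same 3 WT libraries.

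The genes come from very different settings. Serpina7 encodes thyroxine-binding globulin and Gc the vitamin D-binding protein, carriers that the liver secretes into plasma, and Gc is also a known α-cell gene in islets. Gucy2c encodes guanylyl cyclase C, the intestinal receptor for guanylin and uroguanylin, Ache encodes acetylcholinesterase, which breaks down acetylcholine, and Gm2115, listed by RefSeq also as Ctxnd1, encodes a small cortexin-domain protein. Of the genes that fell, Cd79a encodes the Igα chain of the B-cell receptor, Cyp4f39 a cytochrome P450 of the CYP4 family that ω-hydroxylates very long fatty acids for the skin barrier, and T2 (brachyury 2) is a neighbour of the mesoderm regulator T. Serpina7, Gm2115 and Gucy2c are also among the genes that the study names as disallowed, meaning kept silent in mature β-cells while used in most other tissues.

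All 8 are annotated as protein-coding in GENCODE vM21 on GRCm38 (mm10). Serpina7 (ENSMUSG00000031271) lies on the minus strand at chrX:139079257-139085236, Gucy2c (ENSMUSG00000042638) on the minus strand at chr6:136697284-136781765, Gc (ENSMUSG00000035540) on the minus strand at chr5:89417522-89457898 and Ache (ENSMUSG00000023328) on the plus strand at chr5:137287519-137294466. Gm2115 (ENSMUSG00000097789) is at chr7:84528954-84583531, Cd79a (ENSMUSG00000003379) at chr7:24897381-24902197, Cyp4f39 (ENSMUSG00000061126) at chr17:32452723-32493320 and T2 (ENSMUSG00000058159) at chr17:8355992-8423513, all on the plus strand. The library kit does not mark strand, and 18.03% of the exon bases of T2 are shared with AC164431.1 on the same strand and 2.62% with Gm16702 on the other, so part of the T2 signal cannot be told apart from those genes. On the other strand, Gm42456 covers 2.12% of the exon bases of Ache and Gm44928 1.73% of those of Gm2115. No other gene overlaps the exons of the remaining members.

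RefSeq start sites with upstream sequence (GRCm38.p6) were at hand for 6 of the 8 genes. The 100 bases directly before the start are shown for the 4 whose stretch lies in no annotated exon, to set the sequence in front of 3 risers beside that of 1 faller. Capitals mark matches, on either strand, to any of 6 motifs. The letters TATAAA stand for the TATA box and those of GTTAAT for the half-site of the liver and islet factor HNF1. The half-site of MAF factors was searched as TGCTGAC, and the C/EBP site as TTGCNNAA. The cAMP response element was written TGACGTCA, while the B-cell factor EBF was given the letters CCCNNGGG. Where EBF matches overlap, both are in capitals. Serpina7 is read at chrX:139085237-139085336 (minus strand), Gc at chr5:89457899-89457998 (minus strand), Ache at chr5:137288154-137288253 (plus strand) and Cyp4f39 at chr17:32452623-32452722 (plus strand).
Serpina7: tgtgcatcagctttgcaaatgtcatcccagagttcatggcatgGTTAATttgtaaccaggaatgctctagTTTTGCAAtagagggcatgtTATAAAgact
Gc: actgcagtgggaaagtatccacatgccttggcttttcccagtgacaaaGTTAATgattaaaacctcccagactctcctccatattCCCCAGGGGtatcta
Ache: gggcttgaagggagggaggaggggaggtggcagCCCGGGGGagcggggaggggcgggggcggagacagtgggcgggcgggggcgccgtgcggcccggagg
Cyp4f39: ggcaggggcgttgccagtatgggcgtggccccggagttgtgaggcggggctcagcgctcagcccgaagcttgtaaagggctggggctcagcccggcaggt

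Serpina7 and Gc, the liver-type carriers, both held GTTAAT within the 100 bases, which over the whole 250 bases upstream was found in 6.52% of 27025 promoters. Serpina7 also held TATAAA, present in 13.0% of promoters, and TTGCNNAA, present in 9.55%. The EBF letters of Gc and Ache were present in 11.7% of promoters. No match stood in the stretch of Cyp4f39, and in the 250 bases upstream of Gm2115, Cd79a and Cyp4f39 none of the 6 motifs was found. TGCTGAC, in 3.72% of promoters, and TGACGTCA, in 1.62%, were found before none of the 6 genes. Serpina7 and Gc had 36.0% and 42.0% of G and C in those 250 bases with 0 CG dinucleotides, and Ache 73.6% with 25, beside a median of 52.0% over all promoters. These matches describe letters only.

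Depth and purity were looked at before the members. The FPKM steps of single-exon genes correspond to 9506156 to 16659222 fragments per library, an inference rather than a stated total, and 1 fragment on a transcript of 1 kilobase was worth 0.0600 to 0.105 FPKM. Rptor (ENSMUSG00000025583), which encodes Raptor, was at 0.948, 1.36 and 1.79 FPKM in WT, 0.937, 0.831, 0.507 and 0.485 FPKM in diabetic and 0.423, 0.481, 0.623 and 0.438 FPKM in euglycemic libraries. Every mutant library was below every WT library, though diabetic replicate 1 only by a narrow margin, and the difference in mean log2(FPKM + 1) between the 8 mutant and the 3 WT libraries was -0.57 (exact permutation test, two-sided, p = 0.00606, the smallest it can give). For diabetic mice alone it was -0.48 (exact permutation p = 0.0571) and for euglycemic mice alone -0.65 (exact permutation p = 0.0286, the smallest that 4 against 3 libraries can give). The 12 β-cell markers summed to 158348 to 192122 FPKM in WT, 138598 to 206931 in diabetic and 117820 to 202579 in euglycemic libraries, and 2 of the 12 were called lower than WT in each mutant group. Of all genes tested, 0.498% were called lower in diabetic and 0.196% in euglycemic mice. Diabetic replicate 1 listed 25711 genes above 0 and euglycemic replicate 4 13095, at the ends of the range. The counts of members and of pathway genes called against WT are therefore also given without these 2 libraries, and the other counts are not.

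Serpina7, the thyroxine carrier, was at 4.76, 9.59 and 5.93 FPKM in WT libraries. It stood at 156, 149, 239 and 124 FPKM in diabetic and at 239.7, 252, 107 and 92.2 FPKM in euglycemic libraries. The groups did not overlap, and the lowest mutant library was 9.61 times the highest WT library. On log2(FPKM + 1) the difference from WT was 4.44 (SE 0.37) in diabetic and 4.39 (SE 0.37) in euglycemic mice. The spread inside the euglycemic group was 2.73-fold from lowest to highest, against 1.92-fold in the diabetic group.

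Gc, the other plasma carrier, had a clear level already in WT β-cells, at 41.3, 34.1 and 49.7 FPKM. It was at 172, 178, 214 and 237 FPKM in diabetic and at 190.2, 270.0, 152 and 145 FPKM in euglycemic libraries. All 8 mutant libraries were above the WT libraries, and the lowest of them was 2.93 times the highest WT value. Diabetic libraries were the most even set, with a coefficient of variation of 15.4%, and the log2 difference from WT was 2.24 (SE 0.24) in diabetic and 2.13 (SE 0.24) in euglycemic mice.

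Gucy2c, the guanylin receptor, was at 5.89, 4.12 and 4.62 FPKM in WT libraries. Diabetic libraries held 44.4, 20.7, 25.3 and 12.6 FPKM and euglycemic libraries 36.1, 26.3, 20.02 and 21.8 FPKM. Mutant libraries lay above WT throughout, but diabetic replicates 1 and 4 differed 3.52-fold from each other. Its log2 difference from WT was 2.06 (SE 0.34) in diabetic and 2.18 (SE 0.34) in euglycemic mice.

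Ache was the lowest of the risers. WT libraries held 0.174, 0.293 and 0.321 FPKM, diabetic libraries 2.38, 1.86, 3.32 and 2.50 FPKM and euglycemic libraries 2.79, 2.24, 1.28 and 1.90 FPKM. It entered the test through its mutant libraries, since every WT value is under 1 FPKM. With the mean FPKM at 9.56 times WT in diabetic and 7.80 times WT in euglycemic mice, its log2 differences of 1.46 (SE 0.21) and 1.25 (SE 0.21) understate the ratio, because 1 is added before the logarithm. Ufsp1, which lies 163 bases from Ache, was at 2.27 to 9.47 FPKM in WT, 6.75 to 8.93 FPKM in diabetic and 12.1 to 14.5 FPKM in euglycemic libraries, so it was above every WT library in the euglycemic group, and its part in the Ache values was not tested.

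Gm2115 was at 2.14, 1.65 and 2.25 FPKM in WT and at 23.2, 13.1, 23.2 and 15.2 FPKM in diabetic libraries. Euglycemic libraries were uneven, at 13.9, 20.7, 6.80 and 2.57 FPKM, with a coefficient of variation of 72.7%. The lowest of them, replicate 4, was only 1.15 times the highest WT library. The log2 difference from WT was 2.67 (SE 0.47) in diabetic and 1.70 (SE 0.47) in euglycemic mice. Fah, a tyrosine-degrading enzyme gene 1628 bases away, was at 7.07 to 11.1 FPKM in WT and at 3.10 to 14.8 FPKM in mutant libraries. Next to Serpina7, 4930513O06Rik, 1007 bases away, was at 0 to 0.314 FPKM in WT and at 0 to 1.40 FPKM in mutant libraries.

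**Figure D1:**
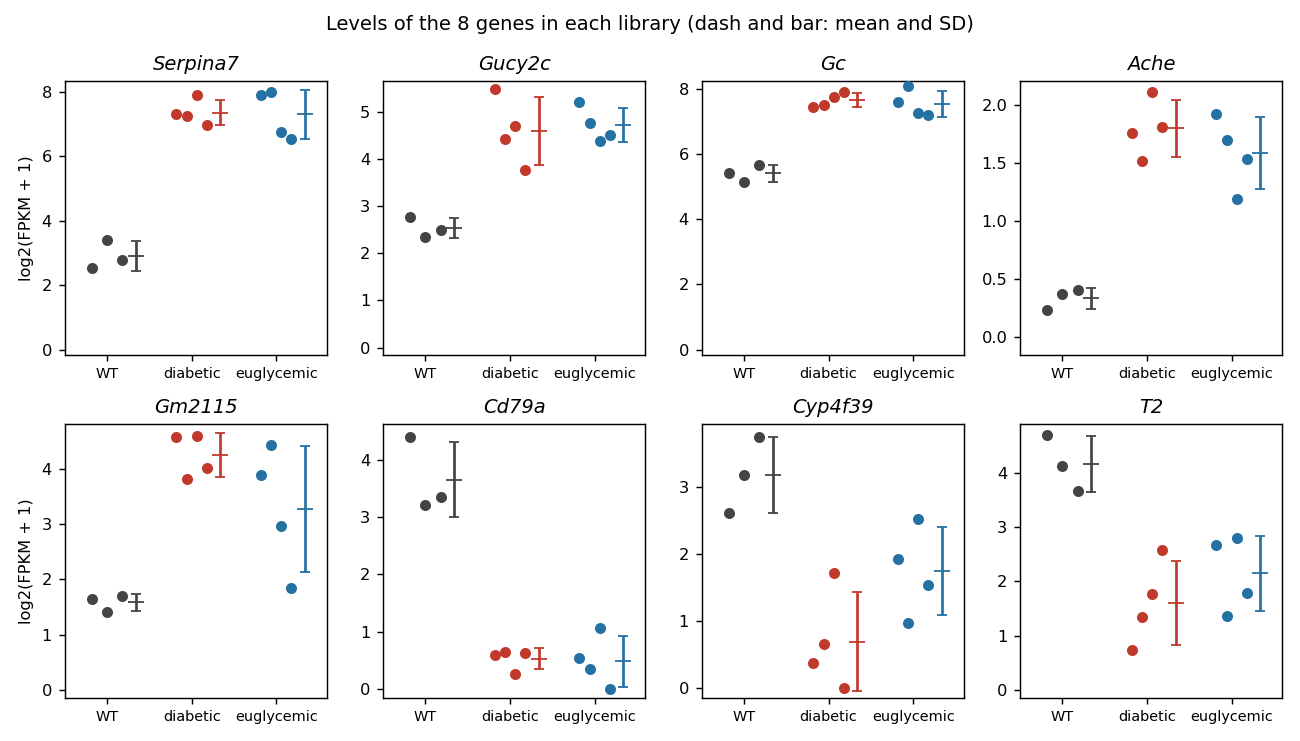
Levels of the 8 genes as log2(FPKM + 1), 1 point per library, with the group mean (dash) and SD (bar) for WT (n = 3), diabetic (n = 4) and euglycemic (n = 4) mice. Points of the 5 risers lie above WT and those of the 3 fallers below WT in each mutant library, and the vertical scale differs between panels.

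Cd79a had the steepest fall. WT libraries held 20.1, 8.20 and 9.22 FPKM, diabetic libraries 0.510, 0.561, 0.199 and 0.552 FPKM and euglycemic libraries 0.453, 0.277, 1.10 and 0 FPKM. With its single annotated transcript of 1457 bases, these values correspond to 142 to 402 fragments in WT, 4 to 10 in diabetic and 0 to 24 in euglycemic libraries, so the mutant values rest on very few fragments. On log2(FPKM + 1) the gene fell by 3.12 (SE 0.30) in diabetic and by 3.16 (SE 0.30) in euglycemic mice. The added 1 shrinks these values, and with 0.1 in its place the differences were -4.45 and -4.87.

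The partner genes of Cd79a were nearly silent in the same WT libraries. The 10 other B-cell markers (Cd79b, which encodes the other signalling chain of the receptor, Ms4a1, Cd22, Pax5, Ebf1, Pou2af1, Blk, Ighm, Ighd and Igkc) summed to 1.27, 0.563 and 1.31 FPKM in WT, with 7 of them at 0 in every WT library. Cd79b was listed at 0 in all 11 libraries. The sum was highest in diabetic replicate 1, at 21.1 FPKM, where Cd79a was at 0.510 FPKM, and it was 1.28 FPKM in diabetic replicate 2, inside the WT range. In the other 6 mutant libraries it was 0 to 0.373 FPKM, below every WT library. Most of the WT sum was Igkc, at 1.09, 0.475 and 1.25 FPKM, so this lower sum rests mainly on 1 gene at a low level. The wider list of 26 B-cell genes went the other way. Its 5 tested genes, Igkc among them, had a median log2 difference from WT of 0.99 in diabetic and 0.78 in euglycemic mice, with 0 called (limma). The part of B cells in the Cd79a values was not tested. Its nearest neighbour Arhgef1, 715 bases away, was at 3.30 to 6.16 FPKM in WT and at 2.91 to 5.09 FPKM in mutant libraries, and Rps19, 7575 bases away on the other side, at 6.48 to 9.91 and 8.91 to 17.1 FPKM. Of its 50-base stretches, 8.31% occur in another annotated gene (Gm32220).

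**Figure D2:**
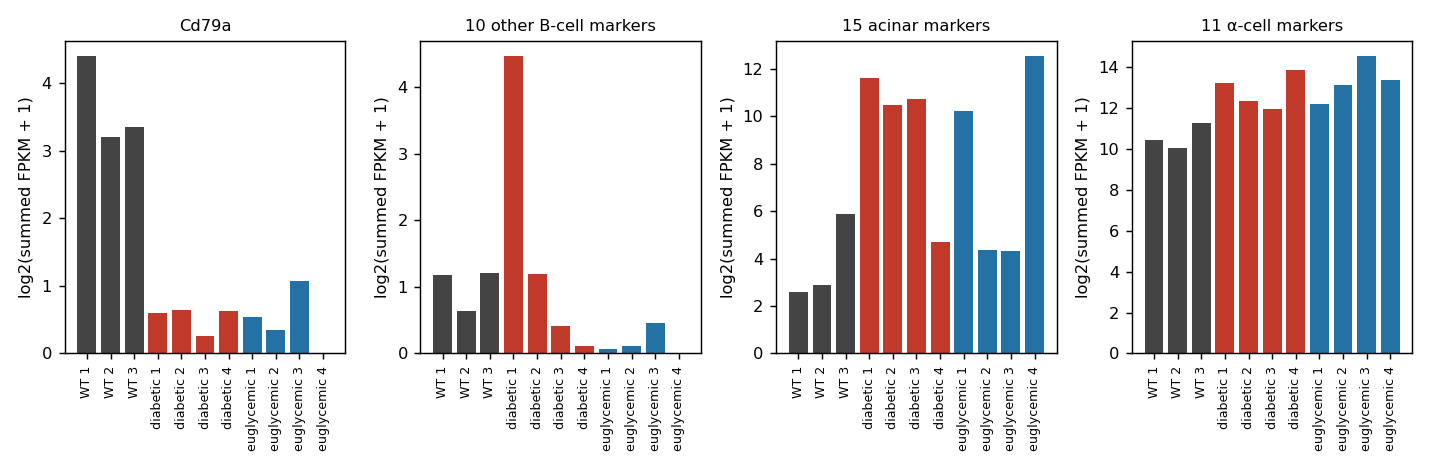
Bars of log2(summed FPKM + 1) in each library for Cd79a, the 10 other B-cell markers, 15 acinar markers and 11 α-cell markers (Gc left out), in grey for WT, red for diabetic and blue for euglycemic libraries. Cd79a is high in the 3 WT libraries, while the other B-cell markers peak in diabetic replicate 1 at 21.1 FPKM and the acinar sum differs widely between mutant libraries.

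Cyp4f39 was at 5.14, 8.05 and 12.5 FPKM in WT libraries. Diabetic libraries held 0.291, 0.575, 2.31 and 0 FPKM and euglycemic libraries 2.82, 0.968, 4.79 and 1.91 FPKM. The highest euglycemic library came to 0.931 of the lowest WT library, so the groups were apart by a narrow gap. On the log2 scale the difference from WT was -2.50 (SE 0.43) in diabetic and -1.44 (SE 0.43) in euglycemic mice. With 0.1 added in place of 1 the diabetic difference was -4.02 and was no longer called. If its longest transcript is assumed, the diabetic values stand for 8.19, 14.7, 83.5 and 0 fragments. Cyp4f17, its neighbour in the CYP4 cluster 12730 bases away, was at 0.688 to 2.35 FPKM in WT and at 1.15 to 2.49 FPKM in mutant libraries.

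T2 was at 25.002, 16.6 and 11.8 FPKM in WT, at 0.655, 1.54, 2.41 and 4.96 FPKM in diabetic and at 5.36, 1.58, 5.94 and 2.42 FPKM in euglycemic libraries. No mutant library reached a WT library, and the highest was 0.506 of the lowest WT value. Its log2 difference from WT was -2.57 (SE 0.44) in diabetic and -2.02 (SE 0.44) in euglycemic mice. T, the mesoderm regulator 10910 bases away, was above 0 in a single library, WT replicate 2, at 0.0568 FPKM. For T2, 17.1% of the 50-base stretches are shared with another gene.

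Since the differences from WT chose the genes, their call counts carry no weight of their own. A call was an adjusted p of at most 0.05 (limma, Benjamini-Hochberg over the 11251 genes tested) with a change of at least 1.5-fold, and all 8 genes passed the filter on low values. In diabetic against WT mice 5 of 5 risers were called higher, where 0.471% of all genes tested were, and 3 of 3 fallers lower, where 0.498% were. In euglycemic against WT mice 4 of 5 risers (Gm2115 not) were called higher beside 0.356% of all genes, and 1 of 3 fallers (Cd79a) lower beside 0.196%. Leaving out WT replicate 2 lowered the 8 calls in diabetic mice to 4 and the 5 in euglycemic mice to 3, and leaving out WT replicate 3 lowered them to 5 and 3. Serpina7, Gc and Cd79a were called against WT in both groups in all of the 22 alternative settings. Without diabetic replicate 1 and euglycemic replicate 4 together there were 8 and 6 calls. The share of all genes called is not set beside the counts of these settings. In FPKM, all 8 mutant libraries stood above all 3 WT libraries for 5 of 5 risers, as for 1.9% of all genes tested, and below them for 3 of 3 fallers, as for 1.78%.

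Among genes with the same sign in both mutant groups, ordered by the smaller of the 2 log2 differences from WT, Serpina7 came at place 1 of 3336 rises, Gc at 32, Gucy2c at 33, Gm2115 at 42 and Ache at 71. Cd79a came at place 2 of 3370 falls, T2 at 4 and Cyp4f39 at 18. So the genes are strong, but apart from Serpina7 they do not lead the order. Cela1, a pancreatic elastase at place 2 of the rises with a smaller change of 4.13, was not listed, and neither was Hspa1l, a heat-shock protein at place 1 of the falls with -3.24. More acinar markers stood high among the unlisted rises, with Try4 at place 3, Cela2a at 5, Clps at 6, Pnlip at 7 and Cel at 9. None of these 5 was called in both mutant groups.

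**Figure D3:**
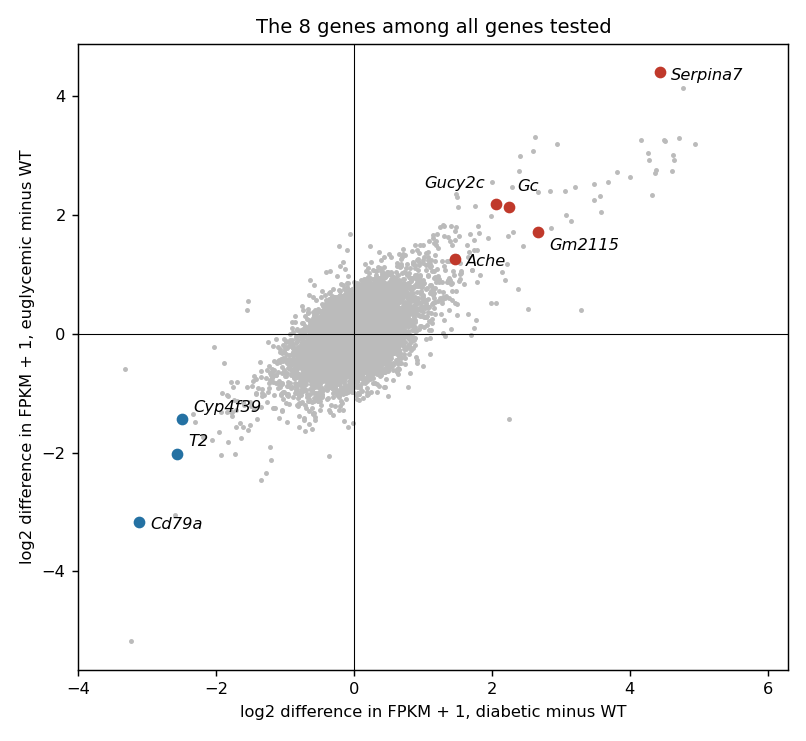
Each grey point is 1 of 11251 genes tested, placed by its difference on log2(FPKM + 1) in diabetic minus WT (horizontal) and euglycemic minus WT (vertical) mice, which share the 3 WT libraries. The 5 risers (red) run from Ache at 1.46 and 1.25 to Serpina7 at 4.44 and 4.39, and the 3 fallers (blue) reach -3.12 and -3.16 for Cd79a.

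Diabetic and euglycemic mutants were compared with each other to ask whether the glucose level and insulin treatment mattered for these genes once Raptor was gone, and this contrast is not the one that chose them. The choice does bear on it, since asking for a large change in both mutant groups favours genes whose levels are alike in both, so the small differences below are in part built in. None of the 8 was called (limma, Benjamini-Hochberg adjusted p from 0.177 to 0.946), in a comparison where 1 of 11251 genes, 0.00889%, was. At an unadjusted p of at most 0.05 there were 2, Cyp4f39 and Gm2115, beside 2317 genes or 20.6% of all tested.

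Cyp4f39 was 1.06 lower in diabetic than in euglycemic mice on the log2 scale (95% interval -1.91 to -0.20, adjusted p = 0.177), and 3 of 4 diabetic libraries lay below every euglycemic library. Gm2115 was 0.97 higher in diabetic mice (0.03 to 1.91, adjusted p = 0.228). T2 differed by -0.55 (-1.42 to 0.33) and Ache by 0.21 (-0.21 to 0.64). Serpina7 differed by 0.05 (-0.69 to 0.80), Cd79a by 0.04 (-0.57 to 0.65), Gc by 0.11 (-0.37 to 0.59) and Gucy2c by -0.11 (-0.79 to 0.56). The intervals of Serpina7, Gc and Gucy2c together span -0.79 to 0.80, so a change of that size could have been missed at this number of libraries. For Cd79a, with 0 to 24 fragments in both groups, the interval on log2(FPKM + 1) does not limit the fold change. Leaving out single libraries gave 0.49 to 1.36 for Gm2115, with the lowest value without euglycemic replicate 4, and without that library and diabetic replicate 1 together it was 0.38. The same ranges were -1.40 to -0.80 for Cyp4f39, -0.87 to -0.26 for T2 and 0.08 to 0.32 for Ache. With a pseudocount of 0.1 the difference of Cyp4f39 was -2.23. Over the 22 alternative settings, the adjusted p ran from 0.130 to 0.423 for Cyp4f39 and from 0.2005 to 0.549 for Gm2115.

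**Figure D4:**
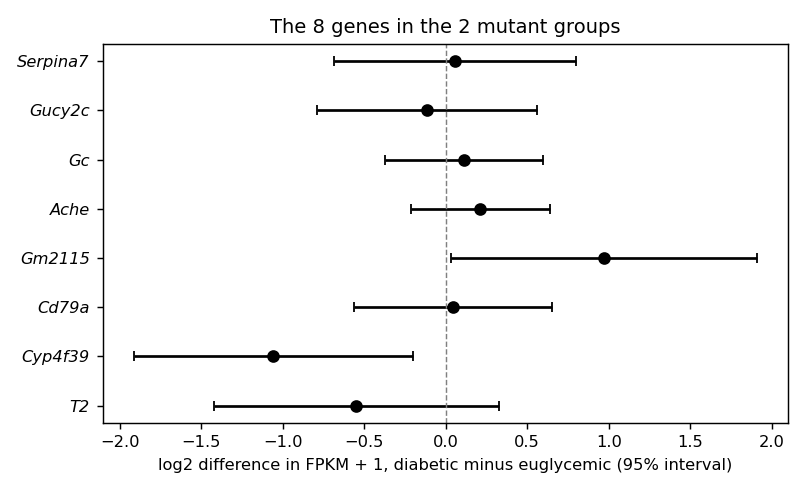
Difference on log2(FPKM + 1), diabetic minus euglycemic, with its 95% interval from the limma fit (n = 4 and 4). The intervals of Gm2115 (0.03 to 1.91) and Cyp4f39 (-1.91 to -0.20) do not reach 0 before adjustment over all genes, and the other 6 do. The difference of Gm2115 drops from 0.97 to 0.49 without euglycemic replicate 4.

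Inside the groups, the risers tended to go up and down in the same libraries. For the deviations of log2(FPKM + 1) from the group means over 11 libraries, the 10 pairs of risers had a median Pearson's r of 0.48, from -0.09 (Gucy2c with Gc) to 0.77 (Serpina7 with Gm2115). The 3 pairs of fallers ran from -0.13 (Cd79a with Cyp4f39) to 0.51 (Cd79a with T2), and the 15 pairs of a riser with a faller from -0.51 to 0.13. These are descriptions over libraries that the genes share, with their depth and cell content.

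**Figure D5:**
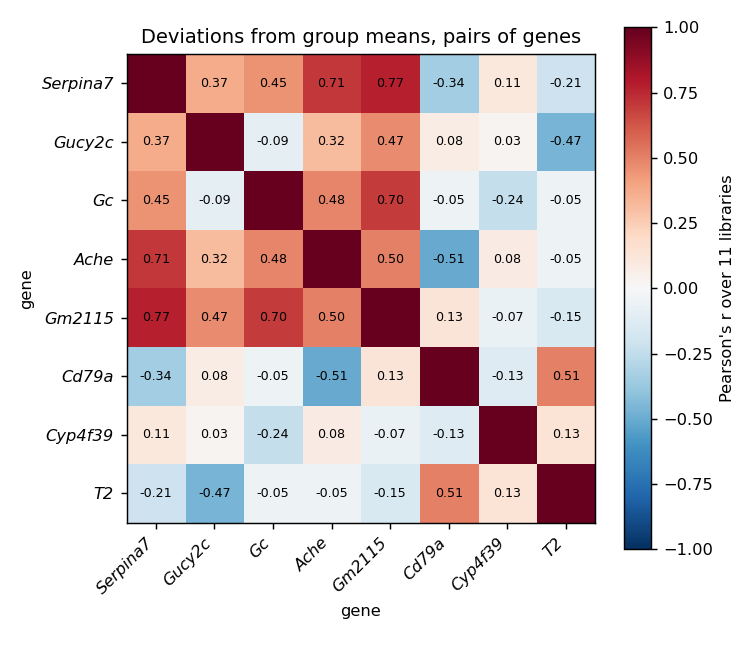
Pearson's r between pairs of the 8 genes for deviations of log2(FPKM + 1) from the group means, over 11 libraries, on a scale from -1 (blue) to 1 (red). Pairs of risers fill the upper left with r from -0.09 to 0.77, while pairs of a riser with a faller lie between -0.51 and 0.13.

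The genes most like each member were taken from all 11251 genes tested, where the highest of so many values of r over 11 libraries is high for any gene, so they are a description with no test. For the levels, in which the selection itself has a part, Serpina7 was most like Ache (r = 0.96), Gc (0.96) and the tetraspanin gene Cd81 (0.96). Gm2115 was most like Aldh1a3 (0.97), a retinaldehyde dehydrogenase at 0.385 to 1.11 FPKM in WT and 3.66 to 50.9 FPKM in mutant libraries, then Plpp1 (0.95) and Cd200 (0.94). Gucy2c was most like Sec23b (0.95), a gene of the vesicle coat that leaves the endoplasmic reticulum, Ldha (0.94) and Ldlrad3 (0.92). Gc was most like Serpina7 (0.96), Fen1 (0.95) and Ache (0.95), and Ache like Serpina7 (0.96), Sec23b (0.96) and Gc (0.95).

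Among the fallers, T2 was most like Fkbp1b (0.98), which was at 201 to 266 FPKM in WT and 34.5 to 109.8 FPKM in mutant libraries, the zinc transporter gene Slc30a8 (0.96) and Tmem80 (0.95). Cd79a was most like Tbc1d22a (0.96), Mlph (0.96) and 2200002J24Rik (0.96), and Cyp4f39 like Tkt (0.93), Cmtm4 (0.92) and Prss53 (0.91). Fkbp1b also had the highest r with T2 inside the groups (0.94), the only such gene to lead both lists. Within groups the leading genes were Mcoln3 for Serpina7 (0.99), Mgat2 for Gucy2c (0.92), BC051142 for Gc (0.95), Samd10 for Ache (0.95), Alg8 for Gm2115 (0.97), Traf5 for Cd79a (0.96) and Alkbh4 for Cyp4f39 (0.92).

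The rest of each pathway was checked from lists of 212 genes without the members, of which 62 passed the filter. Against WT, 3 were called higher (0.471% of all genes tested were) and 0 lower in diabetic mice, 0 higher and 1 lower (0.196% of all genes were) in euglycemic mice, and 0 between diabetic and euglycemic mice (limma). All 3 genes called higher came from the list of disallowed genes, which the study picked on these samples. Among the 55 genes tested from the other lists, 0 were called in diabetic against WT mice, 1 in euglycemic against WT mice and 0 between the mutant groups (limma). At an unadjusted p of at most 0.05 there were 5 of these 55 (9.09%) beside 11.9% of all genes tested in diabetic against WT mice, 11 (20%) beside 13.9% in euglycemic against WT mice, and 13 (23.6%) beside 20.6% between the mutant groups. The single fall was Slc16a10, a transporter of thyroid hormone and aromatic amino acids, at 12.0, 21.2 and 16.9 FPKM in WT and 7.95, 8.18, 6.72 and 5.73 FPKM in euglycemic libraries (log2 difference -1.10, SE 0.21, limma adjusted p = 0.0389). That call is fragile, since 13 of the 22 alternative settings left 0 pathway genes called in that comparison, among them leaving out WT replicate 2 or 3, diabetic replicate 1, 3 or 4, or euglycemic replicate 1, 2 or 4. The other 12 tested genes of thyroid hormone transport and action, of 23 listed, were not called. Ttr, which encodes the other thyroxine carrier transthyretin and is an α-cell gene, was at 302 to 521 FPKM in WT and 453 to 1023 FPKM in mutant libraries. Of 16 other clade A serpins only Serpina10 was tested, at 15.6 FPKM on average in WT, 24.1 in diabetic and 25.8 in euglycemic mice, and it was not called.

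For guanylyl cyclases and cGMP signalling, 7 of 36 genes were tested and 0 were called. The ligand genes of Gucy2c were nearly silent in the sorted cells, with Guca2a (guanylin) at 0 to 0.448 FPKM and Guca2b (uroguanylin) at 0 in all libraries. For vitamin D transport and action 5 of 16 genes were tested and 0 called, with the receptor gene Vdr at 22.3 to 50.1 FPKM in WT, 14.5 to 28.6 in diabetic and 5.60 to 27.2 in euglycemic libraries. The albumin family, close kin of Gc, had 1 of 3 tested and 0 called. Acetylcholine synthesis, transport and breakdown had 2 of 7 tested and acetylcholine receptors 4 of 21, with 0 called in both, and Chat, whose enzyme makes acetylcholine, was at 0 to 0.360 FPKM.

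The lists around the fallers gave no call in any comparison. They had 5 of 26 genes tested for the B-cell receptor and B-cell markers, 4 of 19 for the CYP4 family, 12 of 20 for acylceramide and skin barrier lipids and 2 of 17 for T-box genes. Of the 10 other disallowed genes that the study names, which were picked on these samples and so give no independent evidence of direction, 7 were tested and 3 were called higher in diabetic mice. These were Aass, a lysine-degrading enzyme, from 0.935 FPKM on average in WT to 5.27 in diabetic mice (log2 difference 1.64, SE 0.32), Trf, transferrin, from 0.324 to 1.63 FPKM (0.97, SE 0.21), and Gfra1, a receptor of glial cell-derived neurotrophic factor, from 0.160 to 1.39 FPKM (1.04, SE 0.18). Trf passed the filter through mutant libraries alone and Gfra1 through the 4 diabetic libraries alone, so a difference from WT was built in for both. At an unadjusted p of at most 0.05 (limma) there were 7 of the 7 in diabetic mice, beside 1338 or 11.9% of all genes tested, and 6 of the 7 in euglycemic mice, where 0 were called, beside 1559 or 13.9%. Without WT replicate 1, 2 or 3, or without diabetic replicate 3, the calls among all pathway genes in diabetic mice dropped from 3 to 0, and without diabetic replicate 1 to 1.

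The summed levels of markers of other pancreatic cells were compared as well. The 11 α-cell markers besides Gc summed to 1053 to 2443 FPKM in WT, 3948 to 14734 in diabetic and 4779 to 23786 in euglycemic libraries. None was at 0 throughout a group, and Gcg made up most of the sum, at 734 to 2116 FPKM in WT and 3432 to 22921 in mutant libraries. Of 6 tested, 0 were called higher in diabetic and 2 in euglycemic mice. Beside this and the marker counts that follow, 0.471% of all genes tested were called higher in diabetic and 0.356% in euglycemic mice. The δ-cell list of 6 summed to 1185 to 2521 FPKM in WT and 4865 to 13957 in mutant libraries, with Lepr at 0 throughout the euglycemic group, and the PP-cell list of 3 to 513 to 1107 and 3675 to 14238 FPKM. Of 4 δ-cell markers tested, 0 were called higher in diabetic and 2 in euglycemic mice, and of 2 PP-cell markers tested 2 in each group. Most of the δ-cell sum was Sst, at 1149 to 2469 FPKM in WT and 4774 to 13782 in mutant libraries. Casr, on the same list, was at 3.89 to 9.61 FPKM in WT, 5.96 to 11.3 in diabetic and 1.35 to 3.96 in euglycemic libraries. In a bulk sample fewer cells of a type and less RNA per cell cannot be told apart, and the part of these cells in the rises was not tested.

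The acinar list of 15 summed to 4.998 to 58.5 FPKM in WT, 24.8 to 3098 in diabetic and 18.9 to 5936 in euglycemic libraries. Diabetic replicate 4 and euglycemic replicates 2 and 3 had sums of 18.9 to 24.8 FPKM, inside the WT range, and of 12 acinar markers tested 1 was called higher in diabetic and 0 in euglycemic mice. In these same 3 libraries Serpina7 was at 124, 252 and 107 FPKM, Gc at 237, 270.0 and 152 FPKM and Gucy2c at 12.6, 26.3 and 20.02 FPKM, and Cd79a was at 0.552, 0.277 and 1.10 FPKM. The part of acinar RNA in the members' values was not tested. Endothelial markers (10) summed to 0.0487 to 1.97 FPKM in WT, 10.2 to 53.6 in diabetic and 0.0436 to 2.84 in euglycemic libraries. Both tested, Plvap and Esm1, were called higher in diabetic than in WT mice, where 0.471% of all genes tested were. In diabetic against euglycemic mice 1 of the 2 was called higher, where 1 of 11251 genes was called. Esm1, at 0 to 0.361 FPKM in WT and 0 to 0.413 in euglycemic libraries, passed the filter through the 4 diabetic libraries alone. A difference was thus built in for Esm1. Stromal markers (10) summed to 0 to 1.17, 2.42 to 36.3 and 0 to 1.53, and macrophage markers (7) to 33.3 to 41.7, 74.6 to 198 and 55.4 to 124. C1qa made up most of the macrophage sum, at 33.3 to 41.4 FPKM in WT and 53.8 to 196 in mutant libraries. Adgre1 and Itgam were at 0 throughout WT and at most 1.13 and 0.0258 FPKM in mutant libraries. Lyz2 reached 59.4 FPKM in diabetic replicate 1. Of 4 macrophage markers tested, 0 were called in any comparison. Duct markers (10) summed to 906 to 2644 FPKM in WT and 1174 to 2934 in mutant libraries, and of 9 tested 1 was called higher in diabetic and 2 in euglycemic mice. T-cell markers (7) summed to 0.0716 to 0.189 and 0.0870 to 1.49 FPKM, and Ptprc, the common leukocyte gene, was above 0 only in diabetic replicate 1, at 0.686 FPKM.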

How the data were processed

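RNA of sorted β-cells was measured in 11 libraries. The authors mapped reads to mm10 and deposited FPKM values per gene. The study's methods name Tophat and Cufflinks, whereas the submitters' processing notes name HISAT2 2.0.4, StringTie 1.3.0 and edgeR, and which of them gave the deposited FPKM was not settled. No fragment totals are given. Of 34745 entries, 34267 matched a symbol; repeated symbols kept the entry with the highest mean (17 left out).

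log2(FPKM + 1) of all 11 libraries was fitted with limma 3.58.1 in R 4.3.3 (lmFit, eBayes with trend) for the 11251 genes at 1 FPKM or more in at least 3 libraries. The fit was tested on simulated data. Genes were called at a Benjamini-Hochberg adjusted p of at most 0.05 and 1.5-fold. Rptor, below the filter, was compared by an exact permutation test. The rest was computed in Python 3.11.15 with scipy 1.17.1, pandas 2.3.3 and numpy 2.4.6. The members, gene lists and markers were chosen with earlier results of these data known. Named besides the members and their lists were, per gene, the 3 genes with the highest Pearson's r in levels and in deviations (the first of the deviations is given), neighbours, and genes next in rank. Labels do not say whether libraries came from separate mice, so p-values measure the spread between libraries. Alternatives were library weights, a replicate block, TPM or median-of-ratios scaling, another filter or pseudocount, a fit without the trend or without the third group, every entry kept, and each library left out. Gm2115 matched RefSeq's Ctxnd1 by synonym. One gene of the lists is not reported here.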

Additional observations from a re-analysis of the deposited data

Results flagged for a closer look

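One value stood apart from its group by Dixon's test, among 16 groups of 4 mutant libraries examined for the 8 genes. Cd79a in diabetic replicate 3 was at 0.199 FPKM, or 4 fragments, while the other 3 diabetic libraries were at 0.510 to 0.561 FPKM. The test marks about 5% of groups by chance.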

How the results depend on the processing

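All differences of the 8 genes from WT kept their sign in the 22 alternative settings. Members called were 8 in diabetic and 5 in euglycemic mice against WT; without the filter on low values they were 4 and 3, and with library weights 8 and 8. Leaving out each library gave 4 to 8 and 3 to 6 members, and 0 to 0 between diabetic and euglycemic mice. The share of all genes called in each of these settings is not given here, so these counts do not measure how firm the members are. Pathway genes called were 3, 1 and 0 in the 3 comparisons. They were 0 and 0 against WT without the filter and 0 and 0 with the replicate block, and 14, 20 and 9 with library weights. In euglycemic mice they were 2 with a pseudocount of 0.1, 0 with TPM, 0 with only the groups compared and 0 without diabetic replicate 1 and euglycemic replicate 4 together, a setting chosen after seeing the data. In diabetic mice 2 were called in that last setting. Leaving out each library gave 0 to 4, 0 to 6 and 0 to 3. The Rptor difference was -0.70 to -0.44 when single libraries were left out. The causes were not tested.

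Between diabetic and euglycemic mice, 13 small differences changed sign, and none was called. With library weights Serpina7 was -0.13, Gc -0.053 and Cd79a -0.081. Leaving out single libraries gave -0.20 to 0.28 for Serpina7, -0.41 to 0.17 for Gucy2c, -0.0013 to 0.30 for Gc and -0.12 to 0.24 for Cd79a. Without diabetic replicate 1 and euglycemic replicate 4 together Serpina7 was -0.18 and Cd79a -0.14.

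With the replicate block 7 and 4 members were called against WT (T2 and Ache lost). Libraries sharing a number did not vary together (mean r -0.13 over 10 pairs, -0.37 to 0.21, against 0.04 over 30 other pairs). Depth and cell content also set these values, so the check cannot exclude a pairing by number. Depth limits Cd79a in mutant libraries, at 0 to 24 fragments, and Ache in WT.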
